A study of Mus musculus with 10 samples.

Results

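The RNA of stromal macrophages and of CD11b+ dendritic cells, sorted from the mouse mammary gland, was set against that of the 3 other myeloid populations sorted beside them. These 2 populations make up 4 of the 10 RNA-seq libraries, and they were chosen by their labels in the count table, not by a measured value. The other 6 libraries come from ductal macrophages, CD11b-CD103+ dendritic cells (CD103+ cells in what follows) and CD11b-CD103- dendritic cells (CD103- cells), with 2 biological replicates of every population. All cells came from adult virgin female C57BL/6 mice, with no transgene, Cre driver or treatment named for any group. The labels do not say whether a library holds the cells of 1 mouse or of several. P-values in what follows measure the spread between these biological replicates.

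Tissue macrophages take up dead cells and debris where they reside, while dendritic cells carry antigen to lymph nodes and present it to T cells. In the mammary gland, stromal macrophages lie in the connective tissue and fat around the ducts, and ductal macrophages lie within the duct epithelium. CD11b- dendritic cells correspond to the type 1 lineage (cDC1), which cross-presents antigen to cytotoxic T cells. CD11b+ dendritic cells include the type 2 lineage (cDC2) and, in many tissues, cells derived from monocytes.

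A gene was called shared higher when both stromal macrophages and CD11b+ cells exceeded each of the 3 other populations, and shared lower when both lay below each of them. The call took the largest p-value of the 6 pairs in edgeR (quasi-likelihood test), adjusted by Benjamini and Hochberg over the 15681 genes tested, with a limit of 0.05. The margin of a gene is the smallest in size of its 6 log2 fold changes, given ± SE. Differences between stromal macrophages and CD11b+ cells are log2 fold changes of the first over the second, also ± SE. Levels are CPM on edgeR's TMM scale, where each library's adjusted total over tested genes is set to 1e+06, with the 2 replicates of a population in order. Total counts ranged from 5745085 to 23093742 in the 4 libraries of stromal macrophages and CD11b+ cells, and from 5636092 to 22519191 in the other 6. On this scale 3 counts equal 0.119 to 0.683 CPM, depending on the library. Where a population held under 4 counts of a gene, its levels are printed with no fold change.

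The labels were checked against defining markers. Stromal macrophages held the macrophage genes Adgre1 at 386 and 231, Mrc1 at 1190 and 777 and Lyve1 at 537 and 604 CPM, while the dendritic cell genes Itgax at 0.166 and 0.231 CPM and Flt3 at 0.442 and 0 CPM were close to 0. CD11b+ cells held Itgax at 134 and 77.5 CPM, Cd209a at 1198 and 763 CPM and Irf4 at 89.2 and 55.5 CPM. Itgax did not set them apart, as it was highest in ductal macrophages, at 847 and 610 CPM. Sirpa, a further marker of CD11b+ dendritic cells, stood at 223 and 226 CPM in CD11b+ cells and at 804 and 528.5 CPM in ductal macrophages. It was at most 19.5 CPM in CD103+ and CD103- cells. The growth factor receptor gene Flt3, a defining dendritic cell gene, stood at 16.8 and 18.1 CPM in CD11b+ cells, against 314 and 520.2 CPM in CD103+ cells and 416 and 342 CPM in CD103- cells. CD11b+ cells also held macrophage and monocyte genes, with Adgre1 at 331 and 253, Csf1r at 551 and 566 and the monocyte chemokine receptor gene Ccr2 at 1407 and 1014 CPM. Other markers of macrophages and monocytes were low in CD11b+ cells. Fcgr1, the receptor CD64 of macrophages and monocyte-derived cells, stood at 131 and 123 CPM in stromal macrophages and 2.54 and 2.69 CPM in CD11b+ cells, against 103.4 and 152 CPM in ductal macrophages. Mertk, a receptor for dying cells, stood at 51.2 and 25.4 CPM in stromal macrophages and 5.29 and 10.95 CPM in CD11b+ cells. Of the monocyte genes in CD11b+ cells, Ly6c2 stood at 2.41 and 1.98, Plac8 at 11.6 and 12.2, Vcan at 7.08 and 6.64 and Chil3 at 0.0688 and 0.359 CPM. The cells labelled CD11b+ dendritic cells were thus mixed in these markers, with high Ccr2, Csf1r and Adgre1, low Fcgr1, Mertk and Ly6c2, low Flt3, and Zbtb46 at 19.2 and 8.98 CPM. Mitochondrially encoded genes took 24.8% and 23.1% of counts in stromal macrophages and 3.22% and 1.88% in CD11b+ cells, against 0.631% to 6.29% in the other 6 libraries. The summed level of adipocyte markers was 71.2 and 88.2 CPM in stromal macrophages and 1.93 and 2.33 CPM in CD11b+ cells, against 1.60 to 13.5 CPM in the other 6. Markers of luminal epithelium summed to 1002 and 2520 CPM in stromal macrophages. They summed to 640 and 1637 CPM in CD11b+ cells, against 217 to 1505 CPM in the other 6. In the mean contrast described further on, Epcam, Elf5, Csn3 and Wfdc18 were called higher, and Krt8, Krt18, Krt19 and Cldn4 were not called. None of these markers was shared. The part of epithelial RNA in the results was not tested.

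By this test, 70 genes were shared higher (0.446% of genes tested) and 54 were shared lower (0.344%). At such small shares, 0 shared genes in a gene list described below is no result about that list. In all 124 the 4 libraries of stromal macrophages and CD11b+ cells lay on 1 side of the other 6, with no overlap. Among all genes tested, 1000 (6.38%) had the 4 libraries above the other 6 and 943 (6.01%) below. Taken alone, stromal macrophages exceeded each of the 3 others in 652 genes (4.16%) and lay below each in 833 (5.31%), and CD11b+ cells did so in 300 (1.91%) and 207 (1.32%), by the largest of 3 p-values against the same 6 libraries. Among the shared higher genes with at least 4 counts in every population, 55 in number, margins ran from 1.32 to 9.56 with a median of 2.52. For the 49 such shared lower genes they ran from -1.21 to -6.31, and the median size was 2.24. The population nearest in level was spread over all 3 others. For the shared higher genes it was ductal macrophages in 19, CD103+ cells in 24 and CD103- cells in 27, and for the shared lower genes it was these in 13, 18 and 23. CD103+ and CD103- cells differed from each other in only 5 genes (0.0319%), all higher in CD103+ cells.

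The counts depended on single libraries. Leaving out 1 library in turn gave 35 to 77 shared higher and 12 to 72 shared lower genes. Without CD11b+ replicate 1 there were 35 higher and 12 lower, without CD11b+ replicate 2 there were 40 and 12, without ductal replicate 1 there were 37 and 24, and without CD103+ replicate 2 there were 41 and 29. Without ductal replicate 2, CD103- replicate 1 or CD103+ replicate 1 there were 44, 44 and 43 shared higher genes and 31, 34 and 46 shared lower genes. Of the 70 shared higher genes 24 held their call whichever library was left out, as did 8 of the 54 shared lower genes, and these are described as kept in what follows.

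Retnla had the greatest margin of the shared higher genes. Retnla encodes RELM-alpha (gene ID 57262, chr16:48842609-48844461 on GRCm38), a protein secreted by macrophages that respond to interleukin-4 and interleukin-13. Its level was 12390 and 7475 CPM in stromal macrophages and 18700 and 24020 CPM in CD11b+ cells, against 6.61 and 14.9 CPM in ductal macrophages, 15.4 and 10.9 CPM in CD103+ cells and 10.4 and 4.84 CPM in CD103- cells. All 4 libraries of stromal macrophages and CD11b+ cells stood far above the other 6, and the margin was 9.56 ± 0.67 with an adjusted p of 0.000126 (kept). The difference between stromal macrophages and CD11b+ cells did not pass the test, at -1.10 ± 0.47, adjusted p = 0.108. On the list of alternative activation genes, to which Retnla belongs, 6 of 16 tested genes were shared higher (Retnla, F13a1, Ccl24, Mrc1, Clec10a and Mgl2) and 0 shared lower. As elsewhere in bulk RNA, fewer cells of a type and less RNA per cell cannot be told apart, and likewise for more of either.

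F13a1 encodes the A chain of coagulation factor XIII, which crosslinks fibrin and is made by tissue macrophages and monocytes (gene ID 74145, chr13:36867178-37050244). It stood at 6258 and 4756 CPM in stromal macrophages and 883 and 676 CPM in CD11b+ cells, against 2.51 and 3.22 CPM in ductal macrophages, 2.78 and 0.633 CPM in CD103+ cells and 0.276 and 1.31 CPM in CD103- cells. Stromal macrophages lay above CD11b+ cells by 2.82 ± 0.56, adjusted p = 0.00407, and both lay far above the other 6 libraries, with a margin of 8.08 ± 0.75 (adjusted p = 0.000342, kept). The promoters of Retnla and F13a1 are shown because these genes had the 2 greatest margins with enough counts for a fold change. They are RefSeq windows on GRCm38.p6 from 250 bases before to 50 bases after the start of a transcript, written along the transcript's strand. Capitals mark matches on either strand to 7 motifs of factors known from macrophages, which are spelled out with their background shares further on. Where a gene has several windows, the one with the most matches is shown. F13a1 has 2, so the match in its window reflects that choice.
Retnla, chr16:48842359-48842658, plus strand: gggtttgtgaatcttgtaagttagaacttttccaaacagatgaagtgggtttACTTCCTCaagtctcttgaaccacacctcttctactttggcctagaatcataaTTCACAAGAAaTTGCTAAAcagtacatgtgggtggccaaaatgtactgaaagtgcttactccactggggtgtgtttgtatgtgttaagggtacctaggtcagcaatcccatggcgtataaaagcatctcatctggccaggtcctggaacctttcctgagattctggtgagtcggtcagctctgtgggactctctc
F13a1, chr13:37049164-37049463, minus strand: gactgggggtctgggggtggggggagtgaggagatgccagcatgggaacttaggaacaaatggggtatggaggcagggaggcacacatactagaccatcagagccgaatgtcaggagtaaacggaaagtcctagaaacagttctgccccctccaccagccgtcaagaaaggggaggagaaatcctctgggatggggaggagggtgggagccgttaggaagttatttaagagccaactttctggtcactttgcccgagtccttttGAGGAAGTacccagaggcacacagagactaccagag
In the Retnla window the capitals are, in transcript order, the PU.1 letters, the spaced STAT letters and the C/EBP letters. The Retnla promoter is known to be bound by STAT6 and C/EBP in interleukin-4 signalling. The F13a1 window holds 1 match, to PU.1, just after the transcript start.

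Chemokines that attract monocytes and eosinophils were shared higher as well. Of 21 chemokine genes tested, 5 were shared higher (Ccl2, Ccl6, Ccl7, Ccl9 and Ccl24) and 0 shared lower. Ccl2, the main monocyte attractant acting on CCR2, stood at 1059 and 712.5 CPM in stromal macrophages and 948 and 949 CPM in CD11b+ cells, against 15.5 and 20.4 CPM in ductal macrophages, 27.9 and 24.98 CPM in CD103+ cells and 27.96 and 17.2 CPM in CD103- cells. Stromal macrophages and CD11b+ cells did not pass the test against each other, with a difference of -0.10 ± 0.30, adjusted p = 0.838, and the margin was 5.07 ± 0.35 (adjusted p = 0.000126). Ccl7, a further CCR2 ligand whose gene starts 8260 bases past the end of Ccl2, stood at 1708 and 1263 CPM in stromal macrophages and 408 and 414 CPM in CD11b+ cells, against 8.66 and 21.8 CPM in ductal macrophages, 18.1 and 11.1 CPM in CD103+ cells and 7.87 and 7.60 CPM in CD103- cells. It lay above the other 6 libraries in both populations (margin 4.74 ± 0.44, adjusted p = 0.000342) and was higher in stromal macrophages than in CD11b+ cells by 1.85 ± 0.38, adjusted p = 0.00491.

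Ccl6 and Ccl9, a pair of neighbouring CCR1 ligand genes of the mouse, lay 9250 bases apart on chromosome 11. Ccl6 stood at 7249 and 6931 CPM in stromal macrophages and 6066 and 5648 CPM in CD11b+ cells, against 158 and 251 CPM in ductal macrophages, 130.1 and 258 CPM in CD103+ cells and 199 and 214 CPM in CD103- cells. Its margin was 4.82 ± 0.43 (adjusted p = 0.000296), and all 6 other libraries were within 1 narrow band of about the same level. Ccl9 stood at 1503 and 1286 CPM in stromal macrophages and 2830 and 2030 CPM in CD11b+ cells, against 102 and 136 CPM in ductal macrophages, 8.54 and 12.3 CPM in CD103+ cells and 6.83 and 7.73 CPM in CD103- cells. Ductal macrophages were nearest for Ccl9, with a margin of 3.55 ± 0.32 (adjusted p = 0.00034), and both CD11b- populations lay lower still. Ccl24, eotaxin-2, which acts on CCR3 of eosinophils, stood at 434.5 and 298 CPM in stromal macrophages and 40.4 and 66.1 CPM in CD11b+ cells, against at most 0.554 CPM in the other 6 libraries (adjusted p = 0.000342). All 5 chemokine genes kept their call whichever library was left out. Fibroblasts also make Ccl2 and Ccl7. The summed level of the fibroblast marker list was 1214 and 1646 CPM in stromal macrophages and 299 and 530 CPM in CD11b+ cells, against 362 to 1231 CPM in the other 6 libraries, and CD11b+ cells lay within or below that range. Its part in the levels of stromal macrophages was not tested.

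**Figure D1:**
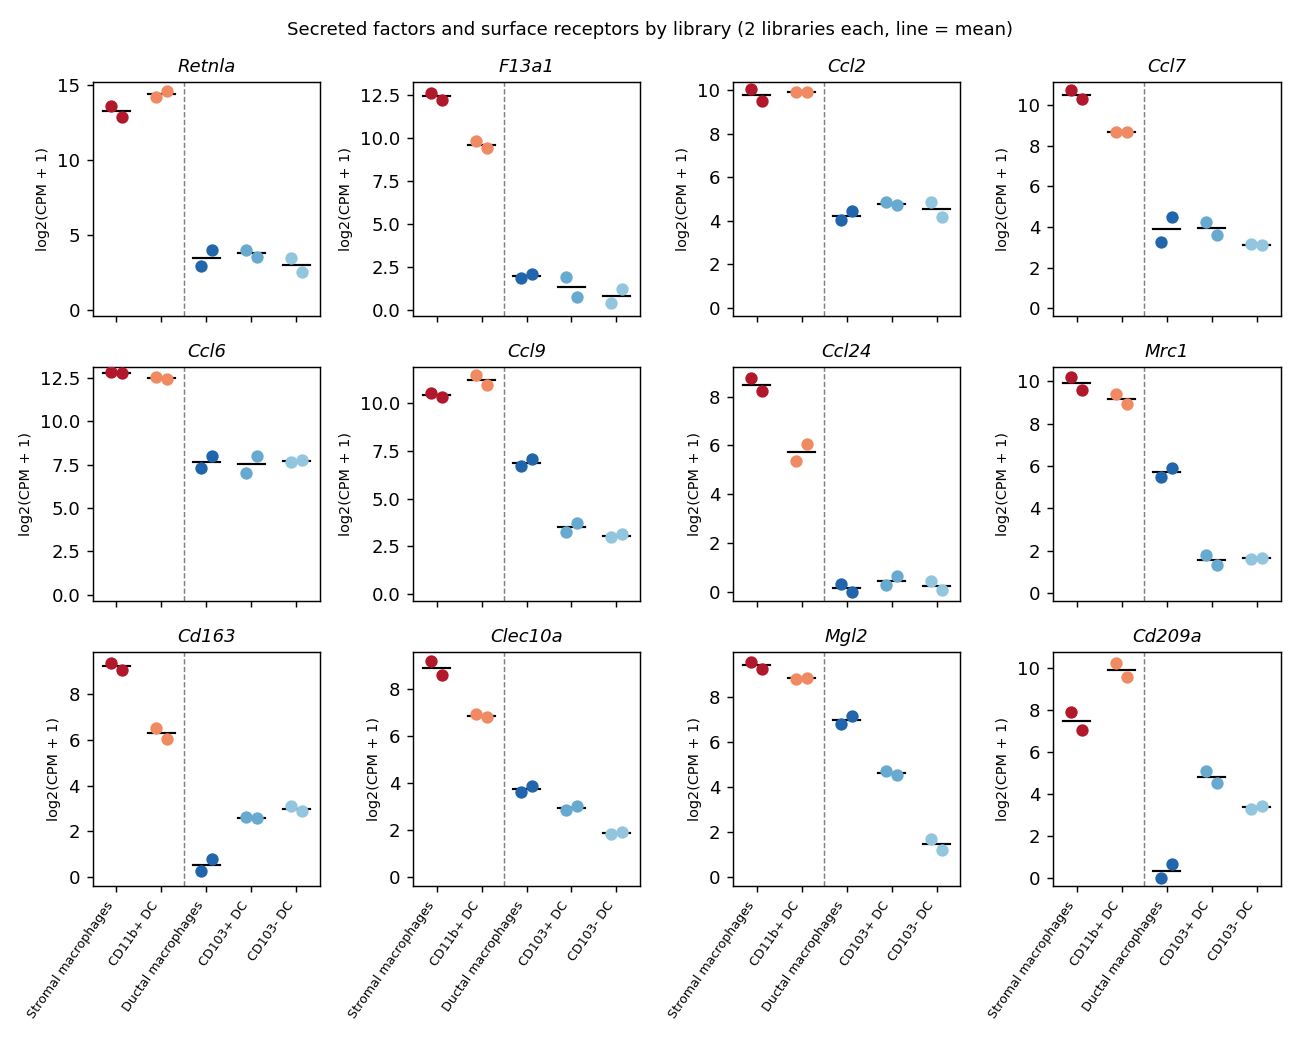
Level of 12 shared higher genes by library, as log2(CPM + 1) on the vertical axis, with 1 point per library and a black line at the mean of the 2 log2 values of a population. The dashed line parts stromal macrophages and CD11b+ cells on the left from the 3 other populations on the right, and in every panel all 4 points on the left lie above all 6 on the right.

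Lectins and scavenger receptors formed the next group. Of 20 C-type lectin receptor genes tested, 4 were shared higher (Clec4a1, Clec10a, Mgl2 and Mrc1) and 1, Clec9a, was shared lower. In the mean of both populations 12 of the 20 were called higher and 3 lower. Mrc1, the mannose receptor CD206, stood at 1190 and 777 CPM in stromal macrophages and 681 and 495 CPM in CD11b+ cells, against 44.0 and 59.96 CPM in ductal macrophages, 2.46 and 1.47 CPM in CD103+ cells and 2.07 and 2.17 CPM in CD103- cells. Both CD11b- populations were at or below 2.46 CPM, ductal macrophages were between, and the margin of 3.50 ± 0.35 was against ductal macrophages (adjusted p = 0.000565). Clec4a1, an inhibitory lectin of the DCIR group, stood at 195.5 and 105 CPM in stromal macrophages and 42.6 and 37.2 CPM in CD11b+ cells, against 0.476 to 2.05 CPM in the other 6 libraries (margin 4.34 ± 0.49, adjusted p = 0.00155). Clec10a and Mgl2, a neighbouring pair of galactose-binding lectin genes 29081 bases apart on chromosome 11, were both shared higher. Clec10a stood at 583 and 381 CPM in stromal macrophages and 119.7 and 111 CPM in CD11b+ cells, against 2.56 to 13.8 CPM in the other 6 libraries (margin 3.20 ± 0.28, adjusted p = 0.000296). Mgl2 stood at 761.5 and 611 CPM in stromal macrophages and 448 and 464 CPM in CD11b+ cells, against 1.36 to 144.5 CPM in the other 6 libraries (margin 1.84 ± 0.27, adjusted p = 0.00956). Ductal macrophages held the highest of these other values for Clec10a and for Mgl2. The call of Mgl2 was lost without ductal replicate 1 (adjusted p = 0.158), ductal replicate 2 (0.0595), CD11b+ replicate 1 (0.069) or CD11b+ replicate 2 (0.0788), and those of Mrc1, Clec4a1 and Clec10a were kept.

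All 7 CD209 lectin genes, relatives of DC-SIGN, were higher in the mean of both populations, and 3 were shared higher. Cd209d stood at 307 and 231 CPM in stromal macrophages and 39.4 and 33.2 CPM in CD11b+ cells, against 0.228 to 3.12 CPM in the other 6 libraries, with a margin of 3.88 ± 0.35 (adjusted p = 0.000296, kept), and it was higher in stromal macrophages than in CD11b+ cells by 2.88 ± 0.31, adjusted p = 0.000116. Cd209a, the member used as a marker of CD11b+ dendritic cells, went the other way within the pair. It stood at 241 and 132 CPM in stromal macrophages and 1198 and 763 CPM in CD11b+ cells, against 0 and 0.567 CPM in ductal macrophages, 33.5 and 22.2 CPM in CD103+ cells and 8.77 and 9.81 CPM in CD103- cells. Its call (adjusted p = 0.00942) was lost without CD103+ replicate 2 (0.12). Cd209c stood at 4.36 and 5.60 CPM in stromal macrophages and 9.83 and 6.82 CPM in CD11b+ cells, against at most 0.276 CPM elsewhere, a low level whose call was lost without any 1 library of ductal macrophages, CD103- or CD11b+ cells (highest adjusted p 0.193). Cd209f, by comparison, stood at 2284 and 1873 CPM in stromal macrophages and 2.34 and 2.33 CPM in CD11b+ cells, against 0.207 to 1.55 CPM in the other 6 libraries. The members are related copies clustered on chromosome 8, so that reads may be split among them.

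Further receptors were shared higher with different balances between the 2 populations. Cd163, the haemoglobin scavenger receptor, stood at 656 and 532 CPM in stromal macrophages and 91.7 and 65.3 CPM in CD11b+ cells, against 0.228 to 7.53 CPM in the other 6 libraries (margin 3.49 ± 0.29, adjusted p = 0.000234, kept). Fcrls, a mouse Fc receptor-like protein with a scavenger domain that is also known from microglia, was tilted toward CD11b+ cells, at 542 and 417 CPM in stromal macrophages and 2658 and 2769 CPM in CD11b+ cells, against 4.78 and 11.7 CPM in ductal macrophages, 2.06 and 0.356 CPM in CD103+ cells and 0.621 and 0 CPM in CD103- cells. Its margin was 5.84 ± 0.79 (adjusted p = 0.00553), and the call was lost without ductal replicate 1 (0.104) or ductal replicate 2 (0.0506). Ms4a8a, a membrane-spanning protein of the MS4A family, stood at 72.1 and 62.4 CPM in stromal macrophages and 78.7 and 89.8 CPM in CD11b+ cells, against at most 1.82 CPM elsewhere (adjusted p = 0.000173, kept). Cd200r1 and Lpar1 showed the same split between the 4 libraries and the other 6. Cd200r1, the inhibitory receptor for CD200, stood at 67.7 and 37.6 CPM in stromal macrophages and 198 and 142 CPM in CD11b+ cells, against 1.14 to 7.73 CPM in the other 6 libraries (margin 3.03 ± 0.36, adjusted p = 0.00241, kept). Lpar1, a receptor for lysophosphatidic acid, stood at 43.2 and 52.2 CPM in stromal macrophages and 59.4 and 56.7 CPM in CD11b+ cells, against 3.22 to 5.11 CPM in the other 6 libraries (margin 3.40 ± 0.30, adjusted p = 0.000296, kept). Itgam encodes CD11b, on which dendritic cells were divided, so its difference among dendritic cells is no finding. Between the macrophages it stood at 116.5 and 102 CPM in stromal and 7.75 and 9.27 CPM in ductal cells.

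Enzymes and signalling proteins came next. Alox5, the 5-lipoxygenase that starts leukotriene synthesis, stood at 87.9 and 105.5 CPM in stromal macrophages and 24.7 and 35.5 CPM in CD11b+ cells, against at most 0.724 CPM elsewhere (adjusted p = 0.000126, kept). Pltp, the phospholipid transfer protein, stood at 1608 and 976 CPM in stromal macrophages and 1340 and 1442 CPM in CD11b+ cells, against 116 and 81.3 CPM in ductal macrophages, 45.5 and 39.3 CPM in CD103+ cells and 36.5 and 11.0 CPM in CD103- cells. The margin was 3.71 ± 0.51 (adjusted p = 0.00612), and its call was lost without ductal replicate 1 (0.0681) or ductal replicate 2 (0.107). Dok2, an adaptor that dampens tyrosine kinase signals, stood at 365 and 297 CPM in stromal macrophages and 1212 and 1510 CPM in CD11b+ cells, against 1.82 and 3.40 CPM in ductal macrophages, 18.3 and 33.6 CPM in CD103+ cells and 25.4 and 19.4 CPM in CD103- cells. CD11b+ cells were highest for Dok2 and ductal macrophages lowest, with a margin of 3.67 ± 0.36 (adjusted p = 0.000565, kept). Capg, which caps actin filaments, stood at 287 and 290.5 CPM in stromal macrophages and 1114 and 1234 CPM in CD11b+ cells, against 17.1 to 29.99 CPM in the other 6 libraries (margin 3.43 ± 0.31, adjusted p = 0.000296, kept). Gas7, a membrane-associated actin regulator, stood at 268 and 214 CPM in stromal macrophages and 154 and 169 CPM in CD11b+ cells, against 15.5 to 43.8 CPM in the other 6 libraries (margin 2.07 ± 0.25, adjusted p = 0.00288, kept).

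Interferon-inducible genes were among the shared higher genes too. Of 25 genes of the interferon response list, 3 (Isg15, Ifitm3 and Zbp1) were shared higher and 0 lower. Isg15, a ubiquitin-like protein attached to targets during antiviral responses, stood at 297 and 288 CPM in stromal macrophages and 192 and 157 CPM in CD11b+ cells, against 29.6 and 39.5 CPM in ductal macrophages, 47.0 and 32.2 CPM in CD103+ cells and 27.6 and 30.9 CPM in CD103- cells. All 4 libraries lay above the other 6 at several times their level (margin 2.14 ± 0.26, adjusted p = 0.00288, kept), and stromal macrophages and CD11b+ cells did not pass the test against each other (0.74 ± 0.25, adjusted p = 0.0511). The promoter of Isg15 is shown because it holds overlapping matches to the interferon response letters, in capitals, on GRCm38.p6.
Isg15, chr4:156200769-156201068, minus strand: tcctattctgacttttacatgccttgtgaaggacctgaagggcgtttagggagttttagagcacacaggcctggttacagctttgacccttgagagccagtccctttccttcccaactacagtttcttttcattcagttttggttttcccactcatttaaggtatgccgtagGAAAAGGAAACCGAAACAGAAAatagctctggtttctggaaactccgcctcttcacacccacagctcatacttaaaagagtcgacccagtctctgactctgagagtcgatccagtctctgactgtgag
Ifitm3, which restricts virus entry, stood at 1760 and 1674 CPM in stromal macrophages and 1394 and 1857 CPM in CD11b+ cells, against 97.7 to 415 CPM in the other 6 libraries (margin 2.17 ± 0.33, adjusted p = 0.0108). It lost its call without CD103+ replicate 2 (0.118), CD103- replicate 2 (0.0908) or CD11b+ replicate 2 (0.108). Ifitm6, its neighbour 5068 bases away, stood at 107 and 69.7 CPM in stromal macrophages and 109 and 98.6 CPM in CD11b+ cells, against 0.228 and 0.378 CPM in ductal macrophages, 3.33 and 2.65 CPM in CD103+ cells and 4.28 and 6.20 CPM in CD103- cells (adjusted p = 0.000172, kept). Ifitm6 was thus lowest in ductal macrophages and at about the same level in both populations above. Ifi27l2a, a further interferon-inducible gene, stood at 1793 and 1653 CPM in stromal macrophages and 814 and 833 CPM in CD11b+ cells, against 41.7 to 99.9 CPM in the other 6 libraries (margin 3.31 ± 0.31, adjusted p = 0.000342, kept). Trim30c, of the TRIM family, stood at 51.4 and 50.3 CPM in stromal macrophages and 39.1 and 27.8 CPM in CD11b+ cells, against at most 1.31 CPM elsewhere (adjusted p = 0.00366, kept). Zbp1, a sensor of Z-form nucleic acids, stood at 201 and 239 CPM in stromal macrophages and 88.4 and 91.0 CPM in CD11b+ cells, against 22.3 to 33.5 CPM in the other 6 libraries (adjusted p = 0.0237), a call lost without CD103- replicate 1 or any 1 library of ductal macrophages, CD103+ or CD11b+ cells (highest 0.246).

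**Figure D2:**
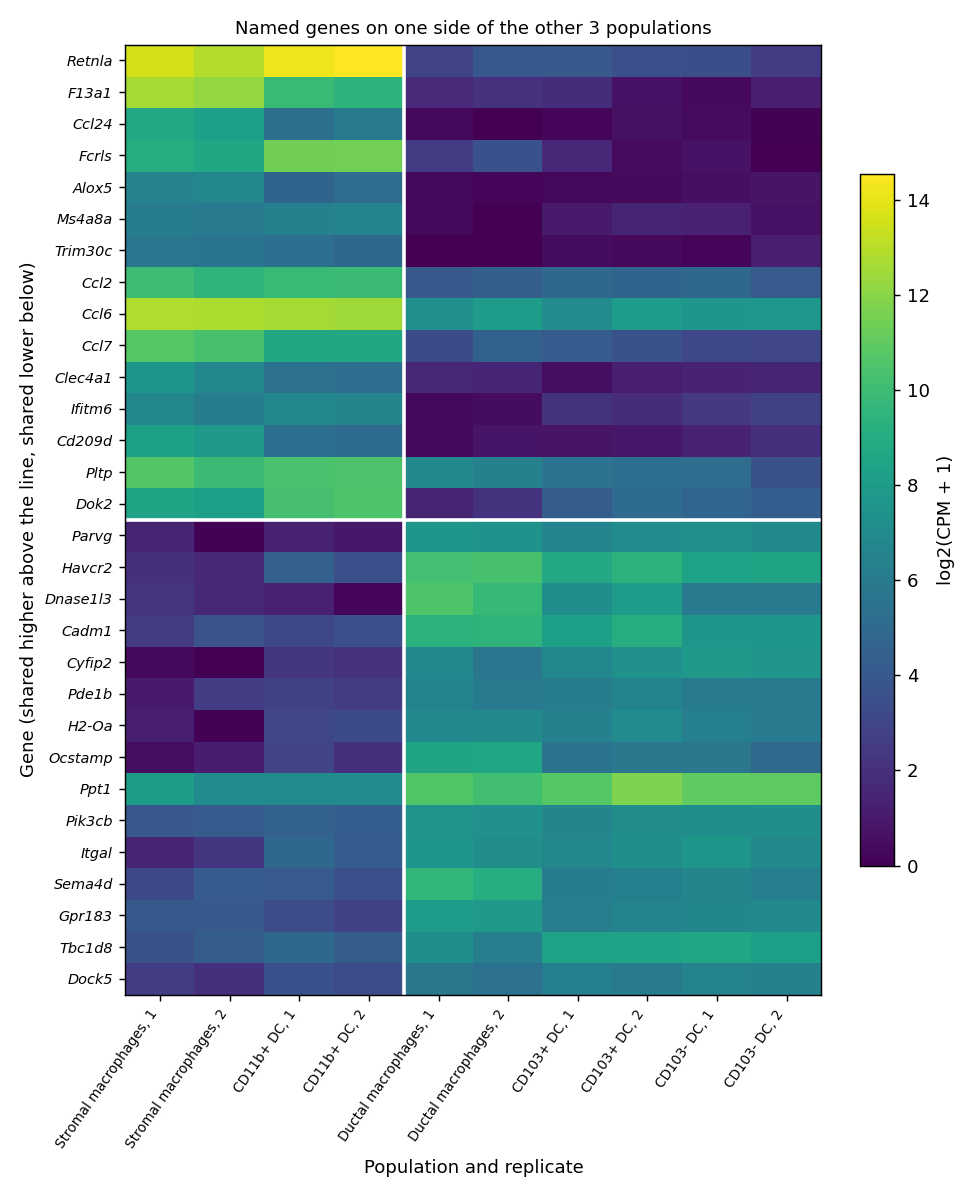
Level of the 15 shared higher genes (above the white line) and 15 shared lower genes (below it) with the greatest margins among those with a mean of at least 30 CPM in every population on the higher side, as log2(CPM + 1), with 1 column per library. Stromal macrophages and CD11b+ cells are the 4 columns on the left. The upper left and lower right blocks are bright, and the brightest cells are Retnla in CD11b+ cells at 18700 and 24020 CPM.

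Shared lower genes included receptors and adhesion molecules known from cDC1, which ductal macrophages also held in these libraries. Havcr2 encodes TIM-3, a checkpoint receptor of T cells and dendritic cells (gene ID 171285, chr11:46454931-46481255). Its level was 2.92 and 2.25 CPM in stromal macrophages and 20.8 and 10.9 CPM in CD11b+ cells, against 1199 and 1269 CPM in ductal macrophages, 443 and 648 CPM in CD103+ cells and 352.5 and 364 CPM in CD103- cells. It was lowest in stromal macrophages, with a difference from CD11b+ cells of -2.64 ± 0.36, adjusted p = 0.000449, and highest in ductal macrophages, with a margin of -4.47 ± 0.36 (adjusted p = 0.000207, kept). Parvg, gamma-parvin, which ties integrins to actin (gene ID 64099, chr15:84324175-84342978), stood at 1.82 and 0.0577 CPM in stromal macrophages and 1.65 and 0.898 CPM in CD11b+ cells, against 204 and 175 CPM in ductal macrophages, 93.0 and 128 CPM in CD103+ cells and 159 and 118 CPM in CD103- cells. The 4 libraries were at or below 1.82 CPM and none of the others was below 93.0 CPM, giving a margin of -6.31 ± 0.74 (adjusted p = 0.00196). The call of Parvg was lost without CD11b+ replicate 1 (0.0582) or CD11b+ replicate 2 (0.0550). The promoters of Havcr2 and Parvg are shown because these genes had the 2 greatest shared lower margins with enough counts.
Havcr2, chr11:46454681-46454980, plus strand: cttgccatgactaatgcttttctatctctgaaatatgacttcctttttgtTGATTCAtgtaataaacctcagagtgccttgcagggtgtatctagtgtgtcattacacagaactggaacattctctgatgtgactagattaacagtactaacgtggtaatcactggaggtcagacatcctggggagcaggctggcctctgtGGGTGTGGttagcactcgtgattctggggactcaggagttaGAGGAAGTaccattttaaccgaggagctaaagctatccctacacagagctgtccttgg
Parvg, chr15:84324470-84324769, plus strand: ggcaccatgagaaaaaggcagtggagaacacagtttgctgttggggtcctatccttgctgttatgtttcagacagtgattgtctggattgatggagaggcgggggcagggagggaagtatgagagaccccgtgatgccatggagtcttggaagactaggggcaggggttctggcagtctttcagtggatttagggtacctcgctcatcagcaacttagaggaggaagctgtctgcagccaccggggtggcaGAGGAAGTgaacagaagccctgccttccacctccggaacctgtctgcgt
The Havcr2 window holds the AP-1 letters, then the KLF letters and then the PU.1 letters, and the Parvg window holds the PU.1 letters at the transcript start. Parvg has 2 windows, and the match in the one shown likewise reflects the choice by number of matches.

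Adhesion and immune receptors followed. Cadm1, an adhesion molecule that marks cDC1, stood at 5.08 and 12.1 CPM in stromal macrophages and 7.98 and 10.8 CPM in CD11b+ cells, against 643.5 and 717 CPM in ductal macrophages, 293 and 539.6 CPM in CD103+ cells and 207 and 201 CPM in CD103- cells. Ductal macrophages were highest for Cadm1, and the margin was -4.46 ± 0.45 (adjusted p = 0.000675, kept). Itgal, the CD11a chain of LFA-1, stood at 1.93 and 3.98 CPM in stromal macrophages and 28.7 and 17.9 CPM in CD11b+ cells, against 109 to 208 CPM in the other 6 libraries (margin -2.48 ± 0.40, adjusted p = 0.0167). Its call was lost without ductal replicate 1 (0.0636), CD11b+ replicate 1 (0.104), CD11b+ replicate 2 (0.261) or CD103+ replicate 2 (0.107). Gpr183, the oxysterol receptor EBI2 that guides dendritic cells, stood at 16.01 and 15.9 CPM in stromal macrophages and 9.70 and 5.92 CPM in CD11b+ cells, against 251 and 234 CPM in ductal macrophages, 74.1 and 89.1 CPM in CD103+ cells and 103.1 and 125 CPM in CD103- cells. It was higher in stromal macrophages than in CD11b+ cells by 0.99 ± 0.27, adjusted p = 0.0199 and lower in both than elsewhere (margin -2.35 ± 0.26, adjusted p = 0.00148, kept). Sema4d, a semaphorin of immune cells, stood at 8.11 and 17.7 CPM in stromal macrophages and 17.1 and 10.8 CPM in CD11b+ cells, against 70.0 to 786 CPM in the other 6 libraries (margin -2.39 ± 0.39, adjusted p = 0.0167), and lost its call without either CD103+ library, either CD11b+ library or CD103- replicate 1 (highest 0.261, without CD11b+ replicate 2).

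Of 19 Toll-like receptor and adaptor genes tested, 0 were shared higher and 2 shared lower, both for receptors that detect microbial products inside the cell. In the mean of both populations 6 of the 19 were called higher and 6 lower. Tlr12, a receptor for the profilin of Toxoplasma, was at 0 CPM in 3 of the 4 libraries and at 0.180 CPM in CD11b+ replicate 2, against 335 and 307 CPM in ductal macrophages, 22.3 and 22.1 CPM in CD103+ cells and 24.8 and 18.4 CPM in CD103- cells (adjusted p = 0.000172, kept). Tlr13, a receptor for bacterial ribosomal RNA, stood at 24.6 and 20.4 CPM in stromal macrophages and 12.4 and 9.15 CPM in CD11b+ cells, against 62.8 to 502 CPM in the other 6 libraries (margin -1.66 ± 0.30, adjusted p = 0.0271), and lost its call without any 1 library other than CD103+ replicate 1 (highest 0.151). Clec9a, the cDC1 receptor for dead cells, was at 0 and 0 CPM in stromal macrophages and 2.75 and 1.08 CPM in CD11b+ cells, against 8.43 and 10.8 CPM in ductal macrophages, 195.5 and 269.6 CPM in CD103+ cells and 159.8 and 194 CPM in CD103- cells (adjusted p = 0.0394, lost without any 1 library other than those of stromal macrophages, highest 0.301). Both CD11b- populations were highest for Clec9a, and ductal macrophages lay between them and CD11b+ cells.

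Enzymes and signalling genes that were shared lower had no single role. Dnase1l3, a secreted DNase that clears chromatin of dead cells, stood at 3.53 and 2.25 CPM in stromal macrophages and 1.51 and 0.179 CPM in CD11b+ cells, against 1513 and 869.5 CPM in ductal macrophages, 149.7 and 261 CPM in CD103+ cells and 63.1 and 65.5 CPM in CD103- cells. The order among the others was ductal macrophages, then CD103+ and then CD103- cells, and the margin was -4.47 ± 0.51 (adjusted p = 0.00161, kept). Cyfip2, part of the WAVE complex that branches actin, stood at 0.276 and 0 CPM in stromal macrophages and 3.99 and 3.23 CPM in CD11b+ cells, against 51.3 to 233 CPM in the other 6 libraries (margin -4.43 ± 0.50, adjusted p = 0.00161, kept). Pik3cb, the beta catalytic subunit of PI3-kinase, stood at 14.6 and 17.8 CPM in stromal macrophages and 22.6 and 19.6 CPM in CD11b+ cells, against 99.2 to 189.7 CPM in the other 6 libraries (margin -2.52 ± 0.26, adjusted p = 0.000675, kept). Hps4, which serves lysosome-related organelles, stood at 8.11 and 9.35 CPM in stromal macrophages and 7.84 and 5.21 CPM in CD11b+ cells, against 29.8 to 119 CPM in the other 6 libraries (margin -1.85 ± 0.26, adjusted p = 0.00684, kept).

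A further 6 shared lower genes lost their call without 1 or more libraries. H2-Oa, the alpha chain of the DO complex that restrains peptide loading on MHC class II, stood at 1.32 and 0.0577 CPM in stromal macrophages and 7.43 and 8.80 CPM in CD11b+ cells, against 61.8 to 129 CPM in the other 6 libraries (margin -3.11 ± 0.54, adjusted p = 0.0234). Its call was lost without CD103+ replicate 2 or any 1 library of ductal macrophages, CD103- or CD11b+ cells, with 0.329 as the highest adjusted p, without CD11b+ replicate 1. Ppt1, a lysosomal enzyme that removes palmitate from proteins, stood at 282 and 129 CPM in stromal macrophages and 131 and 129.6 CPM in CD11b+ cells, against 1142 to 3362 CPM in the other 6 libraries (adjusted p = 0.0163, lost without stromal replicate 2 or any 1 library of ductal macrophages or CD11b+ cells, highest 0.115, without ductal replicate 1). Ocstamp, a membrane protein of cell fusion in osteoclasts, stood at 0.442 and 1.27 CPM in stromal macrophages and 6.95 and 2.87 CPM in CD11b+ cells, against 32.3 to 377 CPM in the other 6 libraries (adjusted p = 0.00816, lost without CD11b+ replicate 2, 0.108). The order for Ocstamp was led by ductal macrophages, with both CD11b- populations between them and CD11b+ cells. Pde1b, a phosphodiesterase of cyclic nucleotides, stood at 1.05 and 5.14 CPM in stromal macrophages and 6.19 and 4.67 CPM in CD11b+ cells, against 61.1 to 95.0 CPM in the other 6 libraries (margin -3.49 ± 0.55, adjusted p = 0.0131). Dock5, a Rac activator, stood at 5.35 and 3.06 CPM in stromal macrophages and 11.8 and 8.98 CPM in CD11b+ cells, against 43.3 to 91.4 CPM in the other 6 libraries (margin -2.24 ± 0.31, adjusted p = 0.00599). Both lost their call without ductal replicate 1, CD11b+ replicate 1 or CD11b+ replicate 2, with adjusted p of 0.0636, 0.170 and 0.239 for Pde1b and of 0.0559, 0.0603 and 0.1004 for Dock5. Tbc1d8, with a Rab GTPase-activating domain, stood at 11.2 and 18.8 CPM in stromal macrophages and 27.7 and 18.3 CPM in CD11b+ cells, against 73.2 to 389.5 CPM in the other 6 libraries (margin -2.29 ± 0.39, adjusted p = 0.0233). It lost its call without CD11b+ replicate 2 (0.334), ductal replicate 1 (0.191), CD11b+ replicate 1 (0.143) or CD103+ replicate 2 (0.0571).

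Stromal macrophages and CD11b+ cells differed in level in some of the shared genes, and most shared genes were not called different between them. Of the 124, 44 differed between the 2 populations, where 4097 of all genes tested did (26.1%, with 11.6% higher and 14.5% lower in stromal macrophages). Among the shared higher genes, 15 were higher and 9 lower in stromal macrophages than in CD11b+ cells, and 46 were not called. Among the shared lower genes these counts were 2, 18 and 34, so where a shared lower gene differed it was mostly lower in stromal macrophages. Dok2 (-2.04 ± 0.34, adjusted p = 0.00147), Capg (-2.02 ± 0.28, adjusted p = 0.000505), Fcrls (-2.50 ± 0.65, adjusted p = 0.0174) and Cd200r1 (-1.69 ± 0.34, adjusted p = 0.00435) leaned toward CD11b+ cells. Cd163 (2.92 ± 0.28, adjusted p = 5.31e-05), Clec10a (2.06 ± 0.26, adjusted p = 0.000236) and Clec4a1 (1.91 ± 0.37, adjusted p = 0.00389) leaned toward stromal macrophages. Ductal macrophages were in turn higher than the mean of both CD11b- populations in 9 and lower in 24 of the 70 shared higher genes, and higher in 19 and lower in 5 of the 54 shared lower genes. Over all genes tested this comparison called 15.4% higher and 13% lower in ductal macrophages.

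**Figure D3:**
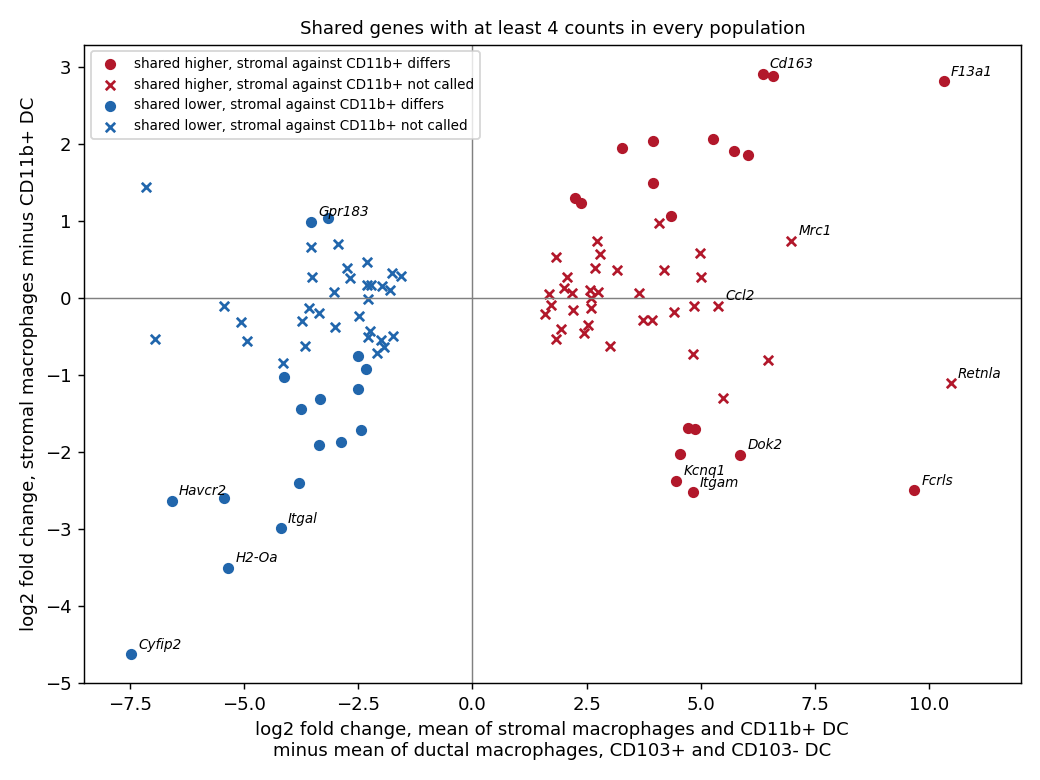
Log2 fold change of the 104 shared genes with at least 4 counts in every population. The horizontal axis is the mean of stromal macrophages and CD11b+ cells minus the mean of the 3 other populations, and the vertical axis is stromal macrophages minus CD11b+ cells. Filled points passed the test on the vertical axis and crosses did not, and Cd163 and F13a1 at the top right lean toward stromal macrophages while Fcrls and Itgam at the bottom right lean toward CD11b+ cells.

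Over all tested genes, the libraries of stromal macrophages and CD11b+ cells lay 1.70 apart as a root mean square difference in log2 CPM. Stromal macrophages lay 1.88 from ductal macrophages, 1.87 from CD103+ and 1.93 from CD103- cells. CD11b+ cells lay 1.45 from CD103+ cells, 1.42 from CD103- cells and 1.68 from ductal macrophages, so stromal macrophages were no nearer to them than any other population. The single distances of CD11b+ libraries to ductal macrophages (1.60 to 1.79) overlapped those to stromal macrophages (1.67 to 1.72). The 2 replicates of stromal macrophages lay 1.15 apart and those of CD11b+ cells 0.736. With 1 direction in all 6 pairs, 2363 genes were above and 2329 below the 3 others. Apart from these, 970 genes had stromal macrophages above and CD11b+ cells below each of the 3 others, and 754 had the reverse. The test of opposite sides called 1 gene (0.00638%), H2-DMb2, and 64 genes had such opposite directions with all 6 unadjusted p under 0.05.

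Because all these comparisons use the same 6 libraries of the other populations, the mean of stromal macrophages and CD11b+ cells was tested against the mean of the 3 others as 1 contrast, with each population weighted equally. It called 2692 genes higher (17.2%) and 2592 lower (16.5%), and the median over all genes was 0.02 on the log2 scale. Gene lists are described by the calls of their members in this contrast and by their median log2 fold change. A list can be higher in the mean through 1 population alone, so values of both are given.

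Macrophage and perivascular genes were higher in the mean. Of 27 macrophage core genes, 20 were called higher and 1 lower (median 2.35), and 2, Mrc1 and Cd163, were shared higher. Of 20 genes of LYVE1+ perivascular macrophages, 17 were called higher and 0 lower (median 5.17), with 5 shared higher. Lyve1, the hyaluronan receptor, stood at 537 and 604 CPM in stromal macrophages and 0.963 and 0.718 CPM in CD11b+ cells, against 0.456 to 16.2 CPM in the other 6 libraries. Folr2, a folate receptor, stood at 2005 and 1150 CPM in stromal macrophages and 2.96 and 7.90 CPM in CD11b+ cells, against 0.995 to 3.18 CPM in the other 6 libraries. Both were high in stromal macrophages and low in CD11b+ cells. The immunoglobulin receptor gene Fcgr3 stood at 724 and 529 CPM in stromal macrophages and 601 and 594 CPM in CD11b+ cells, against 472 and 674 CPM in ductal macrophages, 7.54 and 10.6 CPM in CD103+ cells and 4.76 and 3.80 CPM in CD103- cells. Ductal macrophages were as high as both populations for Fcgr3, which was therefore not shared, and its mean log2 fold change was 4.44 ± 0.20, adjusted p = 1.34e-07. In the complement list 12 of 19 genes were called higher and 2 lower (median 2.05). Among these, C1qb, a chain of complement C1q, was highest in ductal macrophages, at 2184 and 1546 CPM in stromal macrophages and 80.5 and 153 CPM in CD11b+ cells, against 4152 and 4087 CPM in ductal macrophages, 4.57 and 4.12 CPM in CD103+ cells and 1.73 and 1.18 CPM in CD103- cells. Of 23 monocyte-associated genes, 14 were called higher and 0 lower (median 1.43), and Lyz1, lysozyme 1, stood at 92.2 and 58.9 CPM in stromal macrophages and 2325 and 3607 CPM in CD11b+ cells, against 28.1 to 130.1 CPM in the other 6 libraries. The summed level of 6 monocyte markers, all of them also on that list, was 366 and 360 CPM in stromal macrophages and 1444 and 1044 CPM in CD11b+ cells, against 67.9 to 801 CPM in the other 6 libraries. Ccr2 made up nearly all of it in CD11b+ cells, at 1407 and 1014 CPM, and Plac8 most of it in stromal macrophages, at 215 and 275.5 CPM. The part of monocytes in these results was not tested.

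Dendritic cell lists were lower in the mean. Of 20 cDC1 genes, 15 were called lower and 1 higher (median -3.56), with 5 shared lower (Clec9a, Cadm1, Snx22, Ppt1 and Tlr12). Both CD11b- populations among the 3 others correspond to cDC1, so a lower mean of this list was largely set by the populations compared. Of 17 dendritic cell core genes, 13 were called lower and 1 higher (median -2.08). The 0 shared in either direction are near the share over all genes tested (0.446% higher and 0.344% lower). Of 13 MHC class II genes, 11 were called lower and 0 higher (median -1.76). H2-Ab1, the beta chain of the I-A molecule, stood at 2239 and 1132 CPM in stromal macrophages and 26220 and 29280 CPM in CD11b+ cells, against 48950 and 45950 CPM in ductal macrophages, 15200 and 27420 CPM in CD103+ cells and 21250 and 16230 CPM in CD103- cells. Stromal macrophages were the lowest of all populations, while CD11b+ cells lay among the 3 others. In contrast, the cDC2 and monocyte-derived list had 12 of 20 genes called higher and 6 lower (median 1.06), with Cd209a, Clec10a, Mgl2 and Itgam shared higher. Among dendritic cells the difference in Itgam follows from the sort on CD11b.

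Of 36 myeloid transcription factor genes, 17 were called higher and 9 lower in the mean (median 0.16). That 0 of them were shared in either direction is near the share over all genes tested (0.446% higher and 0.344% lower). Irf4, a factor of cDC2 and of alternatively activated macrophages, stood at 28.04 and 34.7 CPM in stromal macrophages and 89.2 and 55.5 CPM in CD11b+ cells, against 7.06 and 2.84 CPM in ductal macrophages, 5.20 and 4.95 CPM in CD103+ cells and 2.69 and 13.6 CPM in CD103- cells. All 4 libraries were above the other 6, the mean log2 fold change was 3.02 ± 0.39, adjusted p = 0.000177, and the adjusted p of the shared call was 0.328. Zeb2, a factor of cDC2 and macrophages, stood at 369 and 318.5 CPM in stromal macrophages and 222 and 139 CPM in CD11b+ cells, against 119.6 and 70.9 CPM in ductal macrophages, 13.8 and 9.07 CPM in CD103+ cells and 10.6 and 17.5 CPM in CD103- cells (mean log2 fold change 3.33 ± 0.23, adjusted p = 3.24e-06). Irf8, a factor of cDC1, stood at 133 and 91.2 CPM in stromal macrophages and 19.9 and 15.3 CPM in CD11b+ cells, against 306 and 183 CPM in ductal macrophages, 766 and 997 CPM in CD103+ cells and 1221 and 1113 CPM in CD103- cells (mean log2 fold change -3.82 ± 0.24, adjusted p = 1.60e-06). Runx3, a factor of dendritic cells and lymphocytes, stood at 2.15 and 3.69 CPM in stromal macrophages and 54.5 and 48.1 CPM in CD11b+ cells, against 209 and 244 CPM in ductal macrophages, 99.1 and 115 CPM in CD103+ cells and 92.2 and 106 CPM in CD103- cells (mean log2 fold change -3.45 ± 0.20, adjusted p = 8.22e-07). For Irf8 and Runx3, every library of stromal macrophages and CD11b+ cells lay below the other 6. Batf3, also a marker of CD11b- dendritic cells, was instead highest in CD11b+ cells, at 108 and 153 CPM. It stood at 28.65 and 20.3 CPM in stromal macrophages and 14.35 and 13.6 CPM in ductal macrophages. Levels were 41.3 and 56.4 CPM in CD103+ cells and 48.9 and 56.2 CPM in CD103- cells (mean log2 fold change 0.77 ± 0.17, adjusted p = 0.00597).

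Integrins, growth factor receptors and cell cycle genes were mostly lower. Of 26 integrin and adhesion genes, 16 were called lower and 2 higher (median -1.23), with Itgal shared lower and Itgam, the gene of the sort marker CD11b, shared higher. Vcam1, an adhesion molecule that binds integrins of leukocytes, stood at 16.7 and 17.7 CPM in stromal macrophages and 12.5 and 16.2 CPM in CD11b+ cells, against 3250 and 3439 CPM in ductal macrophages, 35.3 and 30.4 CPM in CD103+ cells and 21.3 and 12.2 CPM in CD103- cells, with ductal macrophages far above all others. Of 18 growth factor receptor genes, 12 were called lower and 3 higher (median -0.99). Csf2rb, the common beta chain of the GM-CSF receptor, stood at 24.9 and 46.7 CPM in stromal macrophages and 647 and 558 CPM in CD11b+ cells, against 407 and 477 CPM in ductal macrophages, 987 and 794.5 CPM in CD103+ cells and 537 and 542 CPM in CD103- cells. Stromal macrophages were lowest for Csf2rb, and CD11b+ cells lay among the others. Ifngr1, a chain of the interferon-gamma receptor, was shared lower, at 148 and 107 CPM in stromal macrophages and 210 and 186 CPM in CD11b+ cells, against 446 to 721 CPM in the other 6 libraries (adjusted p = 0.0364, lost without CD103+ replicate 2 or any 1 library of ductal macrophages, CD103- or CD11b+ cells, highest 0.384). Of 24 cell cycle genes, 13 were called lower and 0 higher (median -0.73), and for the proliferation gene Mki67 this was again unequal, at 7.95 and 15.8 CPM in stromal macrophages and 118.5 and 119.7 CPM in CD11b+ cells, against 35.8 and 28.2 CPM in ductal macrophages, 162 and 160.1 CPM in CD103+ cells and 167 and 279 CPM in CD103- cells.

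The interferon response list had 18 of 25 genes called higher and 1 lower (median 1.63). Oasl1, an oligoadenylate synthetase-like antiviral protein, stood at 496 and 414 CPM in stromal macrophages and 273 and 182 CPM in CD11b+ cells, against 95.9 and 38.6 CPM in ductal macrophages, 36.9 and 30.4 CPM in CD103+ cells and 19.7 and 25.1 CPM in CD103- cells (mean log2 fold change 3.12 ± 0.25, adjusted p = 6.13e-06), and all 4 libraries lay above the other 6. Immediate early and heat shock genes, which are known to rise during tissue digestion as well as by signalling, had 16 of 20 called higher and 1 lower (median 1.00). Ier3, an immediate early gene, stood at 762 and 743 CPM in stromal macrophages and 353 and 365 CPM in CD11b+ cells, against 31.2 and 56.2 CPM in ductal macrophages, 188 and 109.7 CPM in CD103+ cells and 134 and 88.3 CPM in CD103- cells (mean log2 fold change 2.53 ± 0.22, adjusted p = 1.33e-05). All 13 mitochondrially encoded genes tested were called higher (median 2.12), beside the mitochondrial share of 24.8% and 23.1% of counts in stromal macrophages and 3.22% and 1.88% in CD11b+ cells. The part of that share in the other results was not tested. With mitochondrially encoded genes left out of the fit, 67 genes were shared higher and 58 lower.

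**Figure D4:**
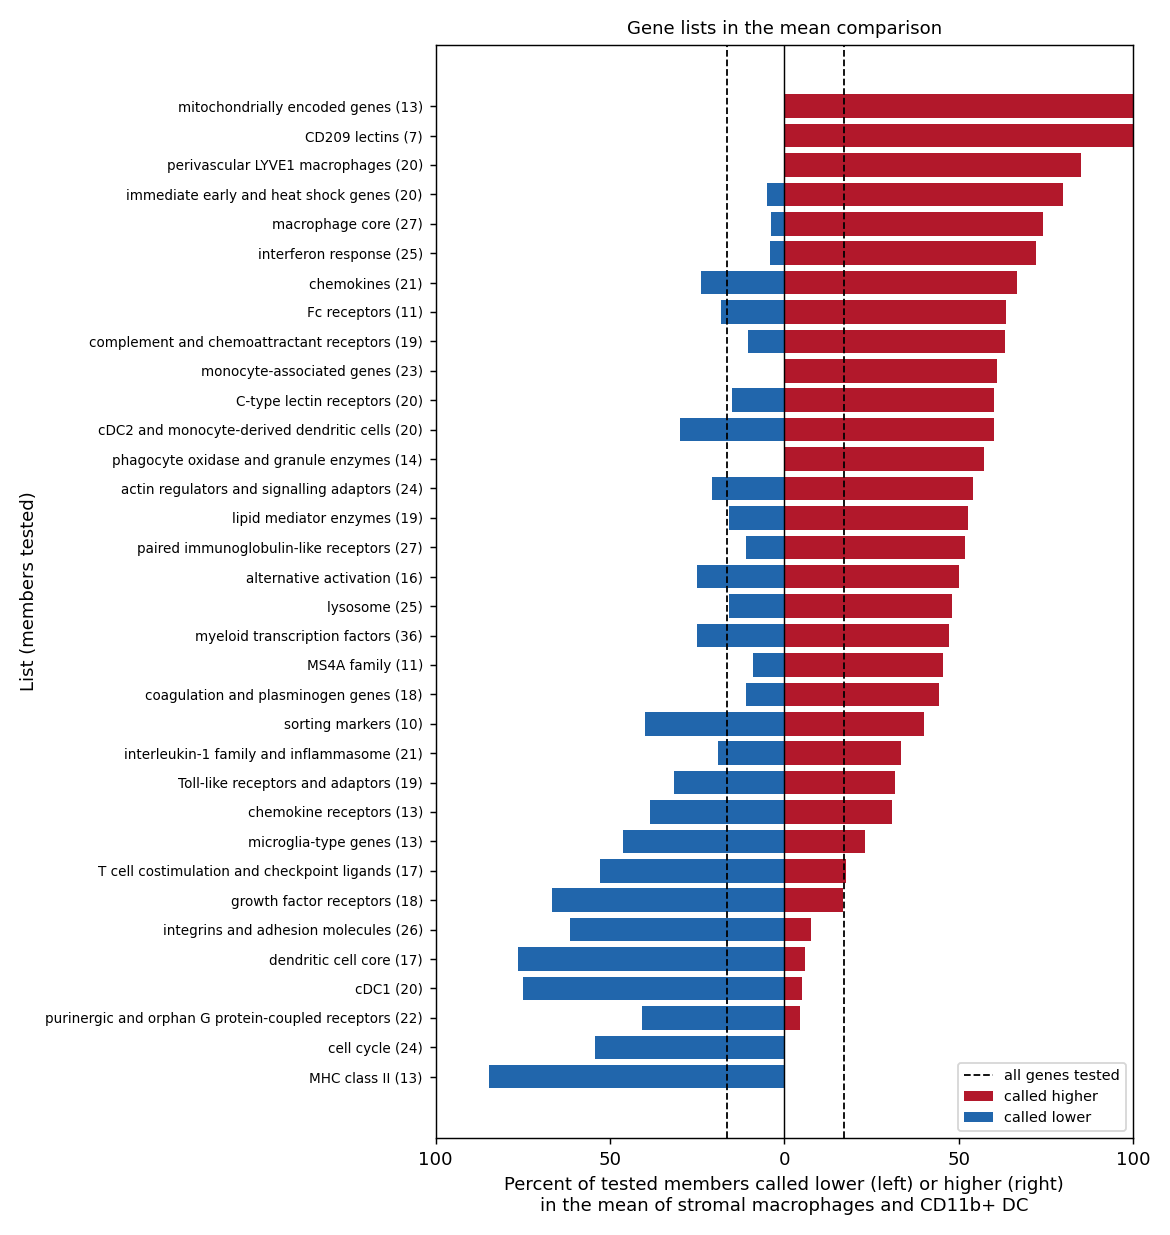
Percent of the tested members of 34 gene lists called higher (red, to the right) or lower (blue, to the left) in the mean of stromal macrophages and CD11b+ cells against the mean of the 3 other populations. Dashed lines give the percent among all genes tested, 17.2 higher and 16.5 lower, and the number of members tested stands after each list's name. CD209 lectins and mitochondrially encoded genes, with all members called higher, are at the top, and MHC class II, dendritic cell core and cDC1 genes reach farthest to the left.

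Several shared genes were neighbours. Within 500 kb, 25 of the 70 shared higher genes and 4 of the 54 shared lower genes had another gene called on the same side. These included the chemokine pairs Ccl2 with Ccl7 and Ccl6 with Ccl9, the lectin pair Clec10a with Mgl2, Ifitm3 with Ifitm6, and Retnla with Retnlg 28147 bases apart. Others paired genes of different families, such as Dok2 with Gfra2, 111613 bases apart, and Tspan32 with Kcnq1, 87391 bases apart. How often genes drawn from all those tested have such a neighbour was not counted, so clustering cannot be judged from these counts. Retnlg, a granulocyte gene of the same family, stood at 10.3 and 7.39 CPM in stromal macrophages and 23.0 and 30.3 CPM in CD11b+ cells, against at most 0.436 CPM elsewhere (adjusted p = 0.0373, lost without stromal replicate 1 or any 1 library of ductal macrophages, CD103- or CD11b+ cells, highest 0.249). Retnla stood far higher in the same 4 libraries, and whether reads of Retnla were counted for Retnlg was not tested. Of the other 7 genes on the neutrophil marker list, S100a9, Ly6g, Mmp8, Cxcr2 and Camp were at 0 in all 4 libraries. Csf3r, the G-CSF receptor, stood at 24.7 and 20.9 CPM in stromal macrophages and 1.58 and 1.98 CPM in CD11b+ cells, against 169.5 and 135 CPM in ductal macrophages and at most 0.829 CPM in both CD11b- populations. Among the shared lower genes, Havcr2 and Cyfip2 lay 142072 bases apart.

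Promoter letters of the shared genes were counted beside those of all tested genes, which had 14899 windows. The shared higher genes had 60 windows of 51 genes and the shared lower genes 56 windows of 41 genes. The PU.1 letters GAGGAAGT, searched like the rest on both strands, were in 6.67% of shared higher and 7.14% of shared lower windows, against 3.19% of all. Those of C/EBP, TTGCNNAA, were in 13.3% and 14.3%, against 8.83%, and the STAT letters, TTC, any 4 bases and GAA, were in 8.33% and 7.14%, against 5.5%. The interferon response letters, GAAA on either side of any 2 bases, were in 5% of shared higher and 1.79% of shared lower windows, against 3.26%. AP-1 letters, TGANTCA, were in 8.33% and 3.57%, against 5.7%, and KLF letters, CCACACCC, in 8.33% and 7.14%, against 3.81%. The NF-kB letters, GGGA, any base and TTTCC, were in 0 of either set, against 0.524%. These shares rest on 0 to 8 windows per motif and were not tested.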

How the data were processed

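Sorted cells gave RNA (RNeasy Plus Mini) that was sequenced from TruSeq RNA libraries as paired-end reads of 80 bases on a NextSeq 500, per the labels' protocols. The deposited values were raw counts per Entrez gene ID, made by the authors with featureCounts on mm10, per the submitters' processing notes. Aligner, annotation, strandedness and tool versions were not given in the sources used here. In all, the table held 27179 genes, of which 25275 were named from RefSeq, 18 from GENCODE and 1886 not at all. Those without a name stayed in totals and tests.

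Counts were fitted with edgeR 4.0.16 in R 4.3.3 (filterByExpr, minimum count 10 and minimum total 15, TMM, quasi-likelihood test, 5 residual degrees of freedom, common biological coefficient of variation 0.333) over all 5 populations. Adjustment was by Benjamini and Hochberg. The SE of a log2 fold change is its size over the square root of F. The steps were tested on simulated data. Alternatives with DESeq2 1.42.0, limma-voom (limma 3.58.1), other scalings, filters, a replicate block and single libraries left out are given in the closing section.

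Named genes are up to 15 per direction by margin with at least 30 CPM on the higher side, up to 5 members per list by mean log2 fold change, and sorting markers. Gas7, Hps4, Ifi27l2a, Ifngr1, Irf4, Lpar1, Retnlg and Zbp1 were added after their values were seen, as were the marker genes that describe the labels and other cell types. Members, lists and motifs were chosen with earlier results of these data known.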

Additional observations from a re-analysis of the deposited data

Results flagged for a closer look

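H2-DMb2, a beta chain of the DM molecule that exchanges peptides on MHC class II (gene ID 15000, chr17:34143229-34151553 on GRCm38), was the gene on opposite sides of the 3 other populations. It stood at 3.92 and 3.70 CPM in stromal macrophages and 352 and 358 CPM in CD11b+ cells, against 43.7 and 38.8 CPM in ductal macrophages, 78.0 and 100.1 CPM in CD103+ cells and 73.2 and 85.4 CPM in CD103- cells. Stromal macrophages lay below every other library and CD11b+ cells above, and their difference was -6.54 ± 0.28 on the log2 scale. The adjusted p for opposite sides was 0.0402 by edgeR's quasi-likelihood test. The call was kept without stromal replicate 1 and lost without each other library, among them ductal replicate 1 (adjusted p = 0.182) and stromal replicate 2 (0.0573). The near-identical neighbour H2-DMb1 may share its reads.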

How the results depend on the processing

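With no filter on low counts, 110 genes were shared higher and 116 lower, 82 of the shared genes differed between stromal macrophages and CD11b+ cells, and 2 lay on opposite sides. The DESeq2 Wald test gave 140, 167, 109 and 4. Tested against a log2 fold of 1 (glmTreat), the counts were 33, 17, 15 and 0, and the mean contrast called 584 higher and 633 lower. With both CD11b- populations averaged, 108 were shared higher and 95 lower. DESeq2 size factors, upper quartile scaling, mitochondrially encoded genes left out, a minimum count of 50 and limma-voom kept the counts of shared genes between 58 and 73 higher and between 46 and 58 lower. Scaling moved the median of all genes by at most 0.0305 in size. Without 1 library in turn, 35 to 77 genes were shared higher, 12 to 72 were shared lower, 1915 to 2731 were higher and 1772 to 2894 lower in the mean contrast, 15 to 53 shared genes differed between both populations, and 0 to 1 lay on opposite sides. For the named genes 2841 values kept their call, 163 lost it and 4 gained it, and the direction was never reversed.

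Replicate numbers are shared between populations but are not said to mark a shared animal or day. Over 10 pairs of populations the deviations of same-numbered libraries correlated from -0.176 to 0.177. In 4 pairs they were positive, at 0.102 to 0.177. These were the pairs among stromal macrophages, CD11b+ cells and ductal macrophages, and CD103+ with CD103- cells. The remaining pairs were negative, at -0.124 to -0.176. As both signs occurred, the numbers were not taken as pairing, and the source of this pattern was not tested. With the replicate block, 56 genes were shared higher and 42 lower, 2482 were higher and 2407 lower in the mean contrast, 36 shared genes differed between both populations, and 0 lay on opposite sides. Of the 70 shared higher genes 55 were called with the block, and of the 54 shared lower genes 41.

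With 2 libraries per population the spread rests on 5 residual degrees of freedom, and leaving a library out of a population leaves 1, assumed to vary like the others. In the smallest library 3 counts equal 0.683 CPM, so levels below that are not told from 0.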

Other observations

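Further lists, which hold few genes shared by stromal macrophages and CD11b+ cells, divided the 5 populations in other ways. Of 21 genes of the interleukin-1 family and inflammasome list, 7 were called higher and 4 lower in the mean of both populations (median log2 fold change 0.36). The 0 shared genes are near the share over all genes tested (0.446% higher and 0.344% lower). Il1rn, the interleukin-1 receptor antagonist, stood at 78.5 and 59.2 CPM in stromal macrophages and 1706 and 1241 CPM in CD11b+ cells, against 427 and 462 CPM in ductal macrophages, 22.5 and 7.01 CPM in CD103+ cells and 2.14 and 3.75 CPM in CD103- cells. CD11b+ cells were highest and stromal macrophages lay below ductal macrophages. Of 13 chemokine receptor genes, 4 were called higher and 5 lower (median -0.53). Ccr7, which guides dendritic cells to lymph nodes, was at 0 and 0 CPM in stromal macrophages and 147 and 92.8 CPM in CD11b+ cells, against 93.6 and 70.7 CPM in ductal macrophages, 668 and 1235 CPM in CD103+ cells and 319 and 308 CPM in CD103- cells. CD11b+ cells thus overlapped ductal macrophages for Ccr7 and lay below both CD11b- populations.

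Of 19 lipid mediator genes, 10 were called higher and 3 lower (median 1.14), with Alox5 shared higher and Ptger4 shared lower. Lpcat2, an enzyme of platelet-activating factor synthesis, stood at 5.02 and 3.70 CPM in stromal macrophages and 2.61 and 2.87 CPM in CD11b+ cells, against 753.5 and 591 CPM in ductal macrophages, 19.3 and 17.8 CPM in CD103+ cells and 7.87 and 5.84 CPM in CD103- cells. Ductal macrophages were far above all others. Of 25 lysosome genes, 12 were called higher and 4 lower (median 0.33). Ctsd, the protease cathepsin D, stood at 2104 and 1382 CPM in stromal macrophages and 1603 and 1863 CPM in CD11b+ cells, against 3948 and 2064 CPM in ductal macrophages, 182 and 107 CPM in CD103+ cells and 82.9 and 55.9 CPM in CD103- cells. For Ctsd both CD11b- populations lay below every library of the 3 others. Of 17 T cell costimulation and checkpoint ligand genes, 3 were called higher and 9 lower (median -0.91). Icosl, the ligand of ICOS on T cells, stood at 19.8 and 14.5 CPM in stromal macrophages and 64.4 and 53.3 CPM in CD11b+ cells, against 114 and 127 CPM in ductal macrophages, 175 and 273.5 CPM in CD103+ cells and 190.4 and 145 CPM in CD103- cells, and all 4 libraries lay below the other 6.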
